A study of Mus musculus with 8 samples.

Results

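Kallikrein-related peptidases and Kazal-type Spink inhibitors of the epidermis were examined in 8 RNA-seq libraries of mouse dorsal epidermis. The 10 genes were chosen by symbol, namely the kallikreins Klk5, Klk6, Klk7, Klk8, Klk10, Klk11, Klk13 and Klk14 and the inhibitors Spink5 and Spink12, and each was matched through its Ensembl identifier to 1 of the 55416 genes in the count table. All 10 were among the 13147 genes that passed the filter on low counts and were tested. The libraries came from mice at postnatal day 4 (P4), with 4 labelled as epidermis Rora knockout (RoraEKO) and 4 labelled WT (control). In the RoraEKO mice, a floxed allele of Rora, which encodes the nuclear receptor RORα, was deleted by Cre recombinase driven by the keratin 14 promoter, which is active in keratinocytes of the basal layer and their progeny. Whether the controls carried the floxed allele or Cre is not given in the sources used here, and the labels do not tie the libraries to litters or name the animals, so the p-values measure the spread between these samples. Epidermis was peeled from the dorsal skin after heating, so hair follicle cells could come with it.

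Kallikreins are secreted serine proteases that are made as inactive precursors by keratinocytes of the upper epidermis. In the stratum corneum they cut the extracellular proteins of corneodesmosomes, the junctions that hold dead corneocytes together, and so allow the outermost cells to be shed (desquamation). Spink5 encodes LEKTI, a multidomain inhibitor that restrains KLK5, KLK7 and KLK14, and its loss causes Netherton syndrome, in which the stratum corneum detaches too early.

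Library totals ran from 17286903 to 26705533 expected counts, and 3 counts, the floor used here, corresponded to 0.113 to 0.196 CPM, the unit in which counts are given as a rate of the library total scaled by TMM factors. Rora itself was not separated by the labels, at 158 to 309 CPM in the control libraries and 154 to 237 CPM in the libraries labelled RoraEKO, giving log2 fold change -0.11 and adjusted p = 0.877 by edgeR's quasi-likelihood method, which also gave the p-values that follow. Counts over the whole gene cannot tell a transcript that lacks the deleted exons from an intact one, so every direction below rests on the labels. Xist was seen in 2 of the controls, C1 with 416 CPM and C6 with 527 CPM, and reached at most 0.0546 CPM in the remaining 6 libraries. Ddx3y, a gene of the Y chromosome, was at 0 CPM in C1 and C6 and at 15.7 to 24.1 CPM in the remaining 6. By these genes C1 and C6 are female and the RoraEKO libraries are all male, so sex and genotype are partly confounded. The sum of 5 spinous keratinocyte markers was at 44840 to 70750 CPM in control and 86045 to 107112 CPM in RoraEKO, and most of it was Krt1 and Krt10 (log2 fold changes 0.70 and 0.66). The other markers of that list were at -0.34 (Krtdap), -0.04 (Sbsn) and 0.02 (Dsg1a), the list median was 0.02, and 0 of 5 passed the cutoffs. By contrast, the summed levels of the granular, basal, hair follicle, sebocyte, pigment, immune, fibroblast, muscle and erythroid lists overlapped between the genotypes. Even so, all 5 erythroid markers had log2 fold changes above 0 (median 1.94) and all 5 melanocyte markers had log2 fold changes below 0 (median -0.84), with 0 past the cutoffs in either list. All 5 markers of dendritic epidermal T cells were above 0 (median 0.43). Below 0 were 5 of 6 basal markers (median -0.35) and 4 of 5 Langerhans cell markers (median -0.47), again with 0 past the cutoffs. Endothelial and adipocyte lists summed to at most 3.18 CPM.

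Of the 10 genes, Klk13 and Spink12 were higher in RoraEKO epidermis than in control, and none was lower. A gene was called when its Benjamini-Hochberg adjusted p was under 0.05 and its fold change over 1.5. By this rule 5.51% of all tested genes were called, 2.30% of them higher and 3.22% lower in RoraEKO. The genotypes did not overlap for Klk13 and Spink12 alone among the 10, against 12.9% of all tested genes. Spink12 passed the filter on low counts only through the RoraEKO libraries, so its place in these counts follows in part from the filter. The log2 fold change was above 0 for 7 genes and below 0 for 3, beside 43.9% above 0 among all tested genes, and the median was 0.39 (the same with Spink12 at its lower bound) beside -0.04. In bulk tissue, fewer cells of a type and less RNA per cell cannot be told apart.

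**Figure D1:**
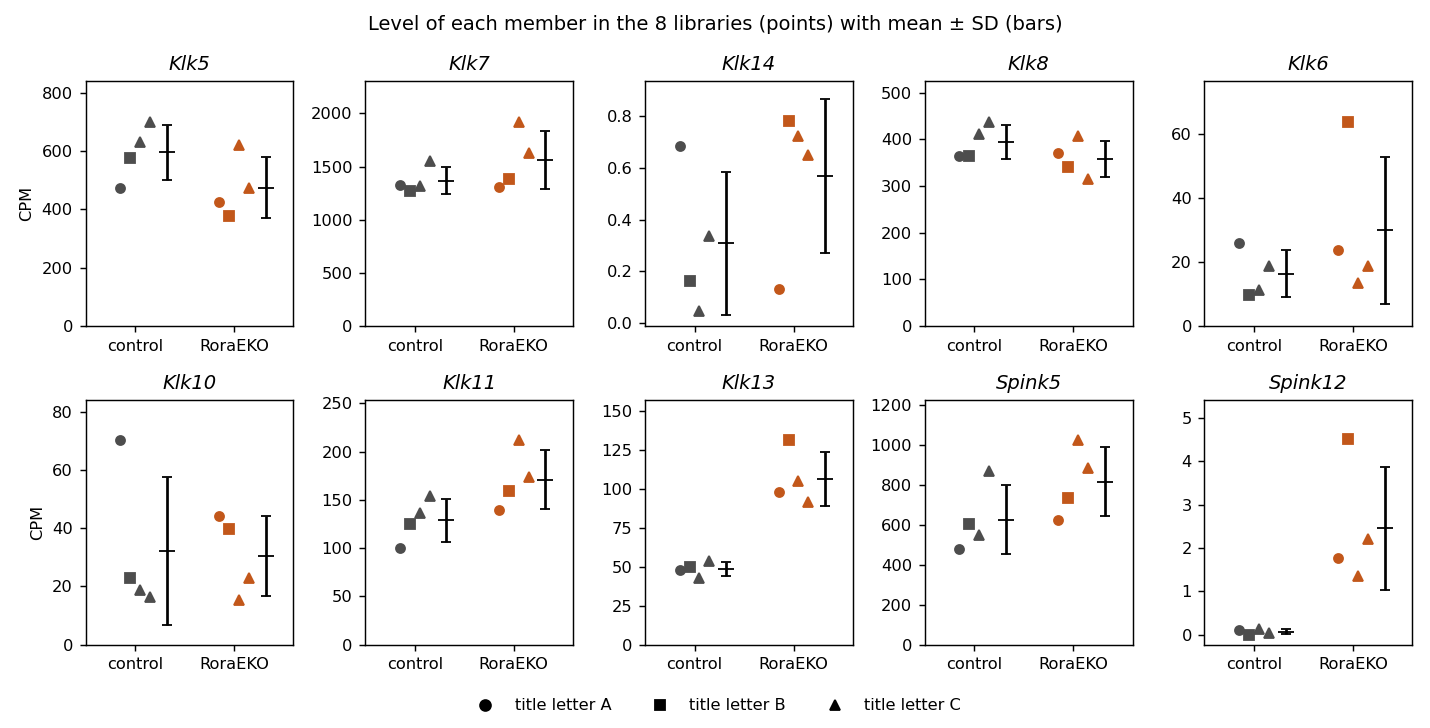
Level of each of the 10 genes in CPM (vertical axes, linear scale) in the 4 control and 4 RoraEKO libraries, with points for single libraries, point shapes for the first letter of the sample title, and bars for mean ± SD. All 4 RoraEKO libraries lie above all 4 control libraries for Klk13 (91.5 to 131 against 42.4 to 53.9 CPM) and Spink12, whereas the genotypes overlap in the other 8 panels.

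Klk5 encodes a trypsin-like protease that can activate itself and then pro-KLK7, and thereby stands at the head of the cascade. It was measured at 474, 576, 629 and 699 CPM in the controls (A1, B1, C1, C6) and at 424, 377, 619 and 474 CPM in the RoraEKO libraries (A3, B4, C2, C3), and values are listed in this order throughout. Of the RoraEKO values, 3 lay below the lowest control value, C3 (473.5 CPM) only just under A1 (474.1 CPM), and C2 lay within the control range. The means were 595 ± 94.96 and 474 ± 105 CPM (SD, n = 4), and the log2 fold change of -0.33 (standard error, SE, 0.194) did not pass (adjusted p = 0.433, edgeR). Klk14, whose trypsin-like product also activates other kallikreins, was close to the detection floor, with 18, 3, 1 and 9 counts in the control libraries and 2, 19, 15 and 13 counts in the RoraEKO libraries. These counts overlapped, and the log2 fold change of 0.86 (SE 0.704, adjusted p = 0.600, edgeR) did not pass. It was 1.59 without control replicate A1 (adjusted p = 0.239, edgeR) and 0.52 without control replicate C1 (adjusted p = 0.788, edgeR).

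Klk7 encodes the chymotrypsin-like protease that cuts corneodesmosin and desmocollin 1. Per kilobase of exonic length it was the most abundant of the 8 kallikreins, at 711 ± 66.4 CPM per kb in control (SD, n = 4), and ranked 76th of 13116 tested genes with a known length. Its libraries were at 1326, 1265, 1319 and 1553 CPM in control and 1311, 1382, 1920 and 1628 CPM in RoraEKO. Replicates C2 and C3 were the highest of all 8, but A3 and B4 fell inside the control range. The log2 fold change was 0.19 (SE 0.140, adjusted p = 0.668, edgeR).

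Klk8 encodes neuropsin, another trypsin-like protease of the upper epidermis. Its values were 364, 365, 411 and 438 CPM in control and 370, 340, 407 and 316 CPM in RoraEKO, and the ranges overlapped with means of 394 ± 36.3 and 358 ± 39.3 CPM (SD, n = 4). The log2 fold change of -0.14 (SE 0.103) did not pass (adjusted p = 0.691, edgeR). Klk11, which encodes hippostasin, was at 100, 125, 137 and 154 CPM in control and 139, 159, 212 and 174 CPM in RoraEKO. Except for A3, the RoraEKO libraries exceeded every control, while A3 lay just above C1 and below C6. Its log2 fold change of 0.41 (SE 0.182) had an unadjusted p of 0.0412 and an adjusted p of 0.248 by edgeR, and so it did not pass.

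Klk13, a trypsin-like kallikrein of stratified epithelia, was the member with the smallest adjusted p. The control libraries were at 47.9, 49.6, 42.4 and 53.9 CPM and the RoraEKO libraries at 97.9, 131, 105 and 91.5 CPM. The lowest RoraEKO library lay well above the highest control, and the controls varied little. The means were 48.4 ± 4.75 and 106 ± 17.3 CPM (SD, n = 4), a 2.20-fold difference with a log2 fold change of 1.14 (SE 0.133, adjusted p = 0.0017, edgeR). Within each first letter of the sample titles, the log2 CPM difference was 1.03 for A, 1.40 for B and 1.04 for C. Both controls of letter C express Xist and neither of its RoraEKO libraries does, so sex and genotype cannot be told apart within C. Without RoraEKO replicate B4, the highest library, the log2 fold change was 1.02 (adjusted p = 0.00342, edgeR), and without the controls that express Xist it was 1.18 (adjusted p = 0.0231, edgeR). Among the 302 genes called higher, Klk13 ranked 39th by p and 192nd by log2 fold change. Over the 8 libraries log2 CPM of Klk13 had a Pearson r of 0.777 and a Spearman rho of 0.833 with Krt1, which carried the spinous sum together with Krt10, while Krtdap, Sbsn and Dsg1a of the same list had log2 fold changes of -0.34 to 0.02. The 5 erythroid markers summed to 47.8 to 334 CPM in control and 125 to 1041 CPM in RoraEKO, with overlap and with 0 of 5 past the cutoffs, and the globin Hbb-bs had r = 0.621 and rho = 0.714 with Klk13. The part of either cell type in the Klk13 difference was not tested.

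The levels of Klk13 followed those of other genes across the 8 libraries. By Pearson correlation of log2 CPM, the closest genes were Dlx5, a homeobox factor (r = 0.99, Spearman rho = 0.976), Snx11, a sorting nexin (0.986 and 0.905), Dvl1, a scaffold of Wnt signalling (0.982 and 0.929), and Gjb1, a connexin (0.980 and 0.905). These coefficients describe 8 libraries that share the genotype contrast, and each of these 4 genes also had a higher mean in RoraEKO.

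The 8 kallikreins lie in a gene cluster on chromosome 7 of GRCm39, on the plus strand, between 43339842 and 43500605, a span of 160.8 kb that holds 10 kallikrein genes in the order Klk14, Klk13, Klk12, Klk11, Klk10, Klk9, Klk8, Klk7, Klk6 and Klk5. The genes that passed the cutoffs were not neighbours. Klk13 spans 43361812 to 43377295. Klk9, a chymotrypsin-like kallikrein outside the 10 genes, spans 43441315 to 43446181 and ends 0.788 kb before Klk8 starts. Upstream sequence of 250 bases is shown in lower case for Klk13 and Klk9, because they passed, and for Klk7, because it was the most abundant member and did not pass. The sequences were read from the GRCm39 genome, the build to which the reads were mapped.
Klk13 promoter, chr7:43361562-43361811, plus strand: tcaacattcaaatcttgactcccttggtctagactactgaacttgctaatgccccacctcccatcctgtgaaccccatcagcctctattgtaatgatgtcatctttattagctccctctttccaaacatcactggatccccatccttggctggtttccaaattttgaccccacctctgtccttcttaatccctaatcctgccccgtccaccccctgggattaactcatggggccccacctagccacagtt
Klk9 promoter, chr7:43441065-43441314, plus strand: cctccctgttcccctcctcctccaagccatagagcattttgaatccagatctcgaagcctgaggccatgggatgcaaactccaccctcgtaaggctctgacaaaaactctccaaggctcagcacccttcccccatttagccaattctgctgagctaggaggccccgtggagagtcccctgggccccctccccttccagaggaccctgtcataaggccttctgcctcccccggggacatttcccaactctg
Klk7 promoter, chr7:43460468-43460717, plus strand: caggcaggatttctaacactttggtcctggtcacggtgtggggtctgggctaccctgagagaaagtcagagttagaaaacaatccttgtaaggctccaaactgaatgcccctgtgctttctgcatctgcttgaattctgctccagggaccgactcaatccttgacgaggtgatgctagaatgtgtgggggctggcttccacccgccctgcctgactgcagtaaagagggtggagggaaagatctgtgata
No letters are in capitals because the searched motif, AGGTCA, the core of response elements that ROR receptors recognise, was on neither strand of these windows. It was also in none of the windows of Klk4, Klk5, Klk6, Klk8, Klk10, Klk11, Klk12, Klk14 and Klk15, while the more distant Klk1 held 3 copies. Of 21770 protein-coding promoters of the same length, 13.1% held the motif on either strand. The absence of these letters from 250 bases says nothing about binding elsewhere.

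**Figure D2:**
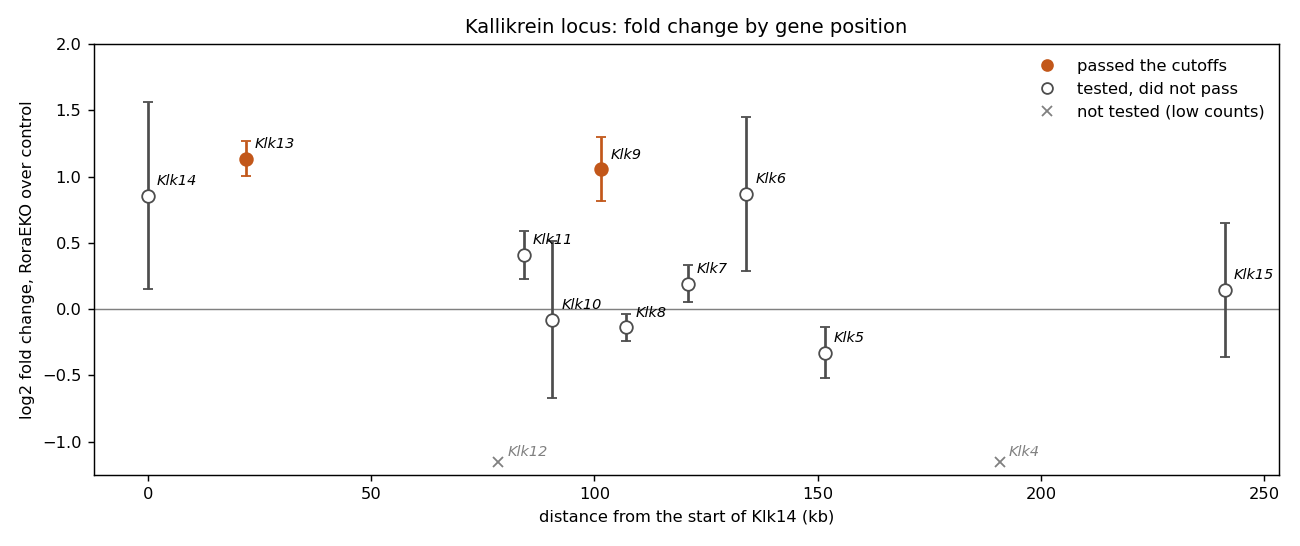
Log2 fold change of RoraEKO over control (vertical axis) with standard errors as bars, against the distance of each gene start from that of Klk14 in kb (horizontal axis). Klk13 (1.14) and Klk9 (1.05) are filled because they passed the cutoffs, open symbols did not pass and include Klk8 at -0.14 next to Klk9, and crosses at the bottom carry no value because Klk12 and Klk4 were not tested.

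Klk9 was at 91.6, 113, 101 and 130 CPM in control and at 146, 242, 297 and 220 CPM in RoraEKO. The genotypes did not overlap, although RoraEKO replicate A3 was close to the highest control. The log2 fold change was 1.05 (SE 0.242, adjusted p = 0.0188, edgeR). The call was lost with Xist as a covariate (adjusted p = 0.0588, edgeR), without the controls that express Xist (0.0784), and without control replicate B1 (0.0624), control replicate C1 (0.0621) or RoraEKO replicate C3 (0.0520), while the log2 fold change stayed between 0.97 and 1.27 in all 18 alternatives. The antisense long noncoding gene 2310002F09Rik covers much of the cluster and shares 1010 exonic bases with Klk9, 457 with Klk8, 202 with Klk11 and 287 with Klk14, but 0 with Klk13. The libraries were stranded, and the strand setting of the counting is not given in the sources used here. 2310002F09Rik was counted at 1.56 to 2.29 CPM in control and 1.40 to 1.83 CPM in RoraEKO (adjusted p = 0.783, edgeR). Per kb of exonic length its means were 0.207 and 0.182 CPM per kb, beside 73.8 and 153 CPM per kb for Klk9 and 0.243 and 0.449 CPM per kb for Klk14.

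Klk6 encodes neurosin, a trypsin-like kallikrein. It was at 25.8, 9.56, 11.4 and 18.8 CPM in control and 23.8, 63.7, 13.3 and 18.8 CPM in RoraEKO. The high RoraEKO mean of 29.9 ± 23.0 CPM (SD, n = 4) rested on replicate B4, and the other 3 RoraEKO libraries lay within the control range. The log2 fold change was 0.87 (SE 0.584, adjusted p = 0.412, edgeR) and 0.18 without B4 (adjusted p = 0.877, edgeR). B4 also had the highest Krt14 of the 8 libraries, at 706 CPM against at most 203 CPM elsewhere, and its summed basal markers were at 1198 CPM. Krt5 was likewise highest in B4 (371 CPM), whereas the basal marker Krt15 was lowest there (55.4 CPM). The part of basal cells in the Klk6 value was not tested.

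Klk10 varied more between libraries of 1 genotype than between genotypes. It was at 70.1, 23.0, 18.8 and 16.5 CPM in control and 44.0, 39.7, 15.4 and 22.7 CPM in RoraEKO, and control replicate A1 was the highest. The log2 fold change was -0.08 (SE 0.593, adjusted p = 0.967, edgeR), and without A1 it was 0.65 (adjusted p = 0.315, edgeR). Libraries whose titles start with A or B had more Klk10 than those starting with C, at 46.6 against 17.7 CPM in control and 41.9 against 19.0 CPM in RoraEKO. Krt71, a keratin of the inner root sheath of the hair follicle, was likewise at 13523 against 2345 CPM in control and 11540 against 4748 CPM in RoraEKO. Over the 8 libraries, log2 CPM of Klk10 had a Pearson r of 0.881 with Krt71, 0.926 with Krt25 and 0.864 with Tchh, and a Spearman rho of 0.929, 0.929 and 0.881. These are descriptions over libraries that share title letters, and the part of follicle content in the Klk10 values was not tested.

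**Figure D3:**
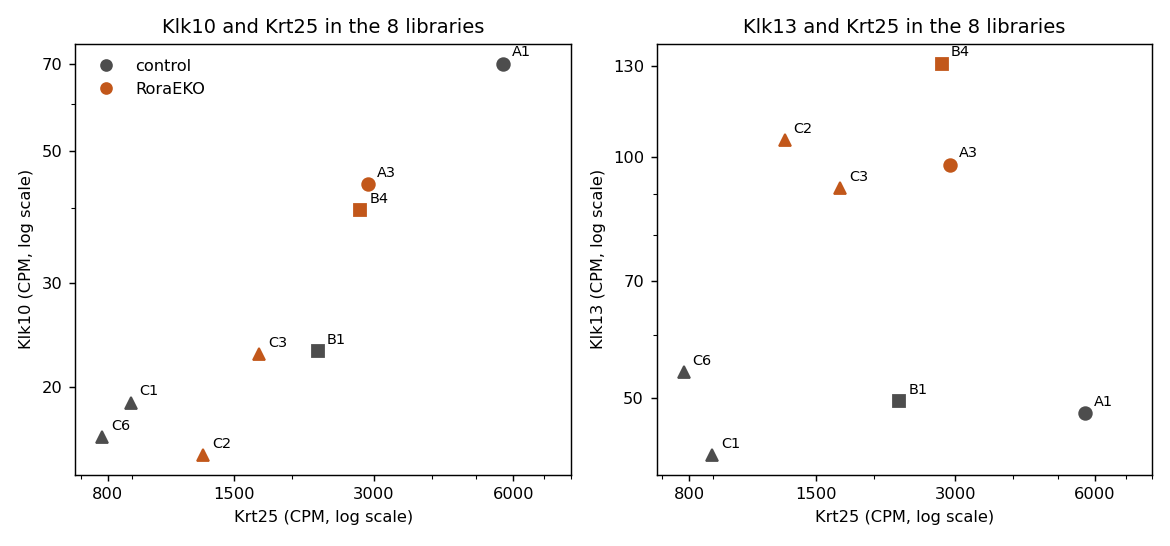
Klk10 (left) and Klk13 (right) against Krt25, a keratin of the inner root sheath, in the 8 libraries, in CPM with both axes on a log scale, colours for genotype and labels for replicates. Klk10 runs from 15.4 to 70.1 CPM and is highest where Krt25 is highest, in control replicate A1, whereas Klk13 separates by genotype at low and high Krt25.

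Added per kilobase, the 8 kallikreins were at 1374, 1409, 1509 and 1717 CPM per kb in control and 1360, 1386, 1869 and 1533 CPM per kb in RoraEKO. The genotypes overlapped, with means of 1502 ± 154 and 1537 ± 234 CPM per kb (SD, n = 4). Klk7, Klk5 and Klk8 made up most of the sum. Klk5 was 25.8, 30.5, 31.1 and 30.4% of it in control and 23.3, 20.3, 24.7 and 23.1% in RoraEKO, without overlap, and Klk7 was 47.4 ± 2.01% and 52.7 ± 2.17% (SD, n = 4), with A1 at 50.22% just above A3 at 50.19%. Klk11 was 3.54 to 4.4% and 4.97 to 5.56%, without overlap. Klk13 was 1.01 ± 0.103% and 2.20 ± 0.538% (SD, n = 4) of the sum, so the gene with the clearest difference was a minor part of it. These shares add to a fixed whole, so that a higher share of some genes lowers the others, and they were not tested.

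**Figure D4:**
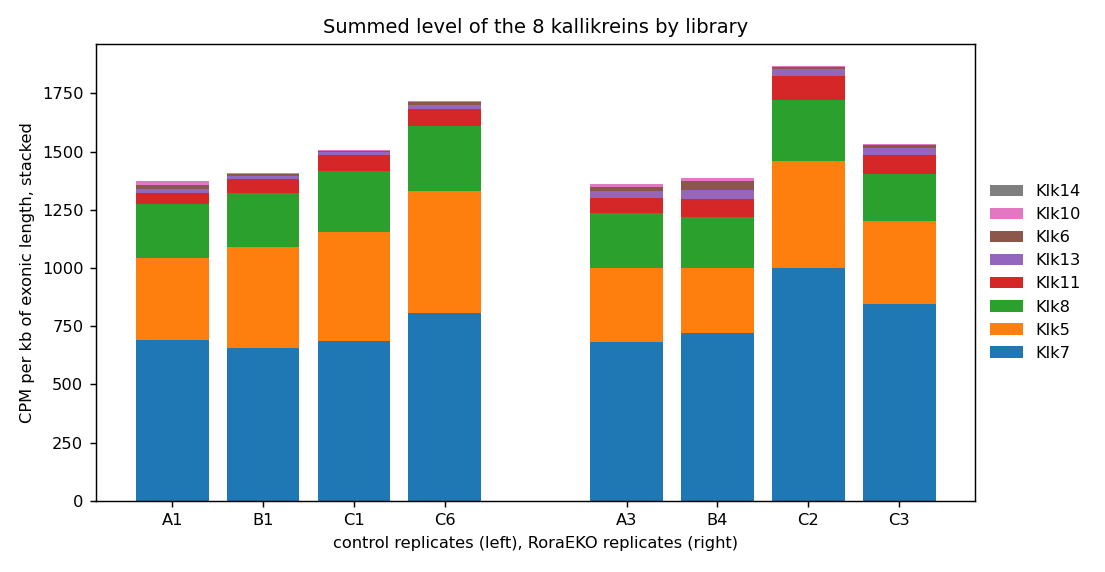
Summed level of the 8 kallikreins in CPM per kb of exonic length (vertical axis from 0), stacked by gene, for the 4 control (left) and 4 RoraEKO (right) libraries. The totals span 1374 to 1717 CPM per kb in control and 1360 to 1869 CPM per kb in RoraEKO, Klk7 is the largest part in every bar, and Klk13 is a thin band in each.

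Spink5, on chromosome 18 at 44096302 to 44155568, was the abundant inhibitor. It was at 481, 606, 549 and 873 CPM in control and 626, 733, 1024 and 885 CPM in RoraEKO. Control replicate C6 lay above A3 and B4, and the genotypes overlapped. The means were 627 ± 171 and 817 ± 174 CPM (SD, n = 4), and the log2 fold change of 0.38 (SE 0.241) did not pass (adjusted p = 0.444, edgeR). The ratio of the summed kallikrein level to Spink5, each per kb, was 13.7, 11.1, 13.2 and 9.41 in control and 10.4, 9.05, 8.73 and 8.29 in RoraEKO, where only control C6 fell within the RoraEKO range. Over the 8 libraries, Spink5 ran with Klk11 (r = 0.928, rho = 0.952) and Klk7 (r = 0.886, rho = 0.786), which are correlations of log2 CPM and cover libraries of both genotypes. Hbb-bs ran with the same 3 genes, with a Spearman rho of 0.762 for Spink5, 0.690 for Klk11 and 0.571 for Klk7, and the part of erythroid cells in these values was not tested.

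Spink12, a Kazal-type inhibitor gene at 44222876 to 44241610 on chromosome 18, was near the detection floor in control. It had 3, 0, 3 and 1 counts in the control libraries and 27, 110, 28 and 44 counts in the RoraEKO libraries. All controls were at or under the floor of 3 counts, and every RoraEKO library was above it, with B4 the highest. In CPM, the RoraEKO libraries were at 1.76, 4.52, 1.35 and 2.20, a mean of 2.46 ± 1.42 CPM (SD, n = 4) and at least 18.4-fold higher than the mean control floor of 0.133 CPM. The adjusted p was 0.00243 (edgeR), and without B4 it was 0.0052, but Spink12 passed the filter on low counts only through its RoraEKO libraries, so these p-values add little to the counts themselves. With every gene of at least 1 count tested, 23735 in all, the adjusted p was 0.000361 (edgeR). Even in RoraEKO, Spink12 was low beside Spink5, at 2.27 against 171 CPM per kb. Over the 8 libraries log2 CPM of Krt1 had a Pearson r of 0.770 and a Spearman rho of 0.810 with Spink12. These were 0.629 and 0.619 for Krt14, -0.048 and 0.143 for Krt5, another basal keratin, and 0.482 and 0.333 for Hbb-bs. Replicate B4 had the highest level of both Spink12 and Krt14. The basal list as a whole had a median log2 fold change of -0.35, with 1 marker (Krt14) above 0 and 5 below. For the spinous list the median was 0.02, with 3 markers above 0 and 2 below. The part of these cells in the Spink12 difference was not tested.

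The 145.3 kb from Spink5 to Spink12 also hold Spink14 and Spink6. Spink14 was at 0.381, 0.929, 1.89 and 2.44 CPM in control and 2.81, 1.11, 9.49 and 7.84 CPM in RoraEKO, overlapping in B4, and its log2 fold change of 1.90 did not pass (adjusted p = 0.179, edgeR). It was the only tested gene of 10 further Spink genes. Spink6, at 0.301 ± 0.143 CPM (SD, n = 4) in control, was not tested. Spink7 was not tested either and had 158 counts in B4 but at most 7 in any other library.

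Genes that act on or beside these proteases were examined from lists. Of 5 further kallikreins, 2 were tested, Klk9 passed, and Klk15 did not (log2 fold change 0.14, adjusted p = 0.930, edgeR). Of 15 activating and neighbouring proteases, 7 were tested and Tmprss13, a membrane-anchored serine protease of differentiated keratinocytes, was higher. Tmprss13 was at 180, 180, 179 and 184 CPM in control and 232, 331, 369 and 284 CPM in RoraEKO. The genotypes did not overlap and the controls lay close together, with a log2 fold change of 0.75 (SE 0.146, adjusted p = 0.0202, edgeR). The call was lost in 6 of 18 alternatives, namely without the controls that express Xist (adjusted p = 0.111, edgeR), with Xist as a covariate (0.0905), with library size alone (0.0520), and without control replicate B1 (0.0786), control replicate C1 (0.0621) or RoraEKO replicate B4 (0.0550), while the log2 fold change stayed between 0.70 and 0.91 in all 18. St14, which encodes matriptase, an activator of epidermal proteases, did not pass (log2 fold change -0.23, adjusted p = 0.692, edgeR), nor did Prss8, which encodes prostasin (0.14, adjusted p = 0.840).

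Of 12 further inhibitors, 9 were tested, with 5 log2 fold changes above 0 and 4 below. Wfdc12, a small protein of the WAP family, was higher. It was at 0.305, 0.984, 1.28 and 1.16 CPM in control and 7.50, 3.74, 7.56 and 6.24 CPM in RoraEKO. All RoraEKO libraries exceeded all controls, with a log2 fold change of 2.75 (SE 0.476, adjusted p = 0.00456, edgeR). It ranged from 2.44 to 3.37 over the 17 alternatives in which Wfdc12 was tested, and was 3.37 without the controls that express Xist. In counts, Wfdc12 was at 8, 18, 27 and 31 in control and 115, 91, 157 and 125 in RoraEKO. With A1 this low, the controls alone would not have passed the filter on low counts. Wfdc18, of the same family, went the other way, with 16, 13, 13 and 17 counts in control and 0, 6, 0 and 0 in RoraEKO, without overlap. Its log2 fold change of -3.07 did not pass (adjusted p = 0.0625, edgeR), and it passed the filter on low counts only through its control libraries. Serpina12, also called vaspin, an inhibitor of KLK7, was at 464 ± 86.6 and 359 ± 59.5 CPM (SD, n = 4) and did not pass (log2 fold change -0.37, adjusted p = 0.334, edgeR). The antisense gene A730032A03Rik shares 125 exonic bases with Wfdc12, and Lncbate3 shares 63 with Tmprss13.

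The corneodesmosome proteins that kallikreins cut, and their plaque partners, gave 0 of 11 genes past the cutoffs in either direction, beside 5.51% of all tested genes. Of the 11 log2 fold changes, 10 were above 0, beside 43.9% over all tested genes, and the median was 0.29 beside -0.04. Cdsn, which encodes corneodesmosin, was at 3592, 3076, 1284 and 1511 CPM in control and 3184, 3711, 2645 and 1838 CPM in RoraEKO. The genotypes overlapped widely (log2 fold change 0.27, adjusted p = 0.802, edgeR). Dsp, which encodes desmoplakin, was at 2421 ± 289 and 2756 ± 280 CPM (SD, n = 4) and did not pass (0.19, adjusted p = 0.679, edgeR). Dsc1 and Dsg1a, cadherins of these junctions, did not pass either (0.37 and 0.02, adjusted p = 0.570 and 0.988). The genotypes did not overlap for Dsg1b (0.72, adjusted p = 0.199, edgeR) and Jup (0.37, adjusted p = 0.277), and neither passed. Among 9 other substrates and receptors, 7 were tested and 0 passed, including Flg, the filaggrin gene (log2 fold change 0.01, adjusted p = 0.990, edgeR), its relative Flg2 (-0.88, adjusted p = 0.315), and F2rl1, which encodes the receptor PAR2 (-0.60, adjusted p = 0.140). Over all 62 of these further genes, 37 were tested, and 3 of the 37 were called higher and 0 lower. Of all tested genes, 2.30% were called higher and 3.22% lower. The median log2 fold change of the 37 was 0.19, beside -0.04 over all tested genes.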

How the data were processed

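The authors prepared stranded, poly(A)-selected libraries, trimmed the paired reads (Skewer), aligned to GRCm39 (STAR 2.5.3a) and used RSEM for gene-level estimates. The deposited values are these expected counts, without scaling, and the annotation release is not given in the sources used here. Here they were rounded to whole numbers, filtered (filterByExpr), TMM-scaled and compared by glmQLFTest (edgeR 4.0.16, R 4.3.3) with no covariate and Benjamini-Hochberg adjustment over 13147 genes. SEs were computed from log2 CPM with a prior count of 2, as the SE of the genotype difference of 4 and 4 libraries. Symbols, coordinates and exonic lengths came from GENCODE vM39, in which 54749 identifiers were found, and levels between genes were compared per kb. Floors of 3 counts cover counting error only.

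The members and gene lists were chosen with earlier results of these data known. All 10 members are named, with genes of other lists that passed the cutoffs and, for lists with none, the 2 of highest mean control CPM (not per kb), for Klk13 the genes of highest Pearson r (of 5 by the rule, 1 is not reported here), while Klk15, Spink7, St14, Prss8, Serpina12, Dsc1, Dsg1a, and F2rl1 were chosen after their values were seen. Alternatives were DESeq2 1.42.0, library size alone, RLE factors, edgeR's likelihood ratio test, the non-legacy test form, 2 other filters, the title letter as a block, Xist as a covariate, leaving out the controls that express Xist, and leaving out each library. The scripts were tested on simulated data. Protein sequences were not used here.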

Additional observations from a re-analysis of the deposited data

Results flagged for a closer look

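Klk10 was at 70.1 CPM in control replicate A1, far from the other 3 controls, which were at 16.5 to 23.0 CPM. Its gap to the nearest control, as a share of the control range, was above Dixon's 95% critical value for 4 samples. This was 1 of 26 combinations of a gene and a genotype examined, and chance flags about 1 in 20. A1 also had the highest Krt71 and Krt25 of the 8 libraries, at 18068 and 5710 CPM, and the part of these cells in the Klk10 value was not tested.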

How the results depend on the processing

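Klk13 kept its call in all 18 alternatives (log2 fold change 1.02 to 1.23, adjusted p at most 0.0231, edgeR or DESeq2). Wfdc12 kept its call in the 17 in which it was tested (adjusted p at most 0.0228). It was not tested with at least 10 counts in every library, because control replicate A1 had 8, and its controls alone would not have passed the filterByExpr filter. Spink12 was also called in 17 (adjusted p at most 0.0343), but under the filterByExpr filter it entered the test only through its RoraEKO libraries, and with at least 10 counts in every library it was not tested, so 1 member was called higher. No alternative called a member lower. Klk10 had a log2 fold change of 0.0795 with the title letter as a block, -0.65 with Xist as a covariate, -0.55 without the controls that express Xist, and -0.26 to 0.65 with each library left out in turn. Klk8 had 0.0264 without the controls that express Xist. Of the other genes of the lists, 3 were called, against 6 with DESeq2, 5 with the likelihood ratio test, 7 with the block, 1 without the controls that express Xist, and 1 to 6 with each library left out. Over all genes 725 were called, against 472 with Xist as a covariate, 314 without the controls that express Xist, 457 to 896 with each library left out, 1031 with DESeq2 and 999 with the block. Without RoraEKO replicate A3, 52.3% of all calls were higher in RoraEKO, against 41.7% with all libraries and 33.7 to 49.0% in the other alternatives. The summed kallikrein level differed by -0.07 to 0.10 (log2) over its 10 alternatives. What the title letter marks is not given in the sources used here, and Klk11 came nearest to the threshold with that block (adjusted p = 0.0517, edgeR). Counts were at most 19 for Klk14 and 110 for Spink12, so counting error is largest for these members.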
